A study of Mus musculus with 12 samples.

Results

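Immediate early transcription factor genes were followed in mouse hearts after doxorubicin (DOX), an anthracycline used against cancer whose dose is limited by damage to the heart. The members were the 10 genes Fos, Fosb, Jun, Junb, Egr1, Atf3, Nr4a1, Ier2, Ier3 and Klf4. They were found by their symbols in the annotation of the Affymetrix mouse array used, and every probe set that named a member was kept. This gave 12 probe sets of 45037, or 10 genes of the 18193 that had a probe set of their own. Jun and Klf4 had 2 probe sets each and the other 8 genes had 1.

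RNA of whole hearts was hybridised on 12 arrays, 3 biological replicates in each of 4 groups of male C57BL/6J mice aged 8 to 10 weeks by the labels. The groups were hearts labelled CHIP knockout taken at day 5 after 1 intraperitoneal injection of DOX at 15 mg/kg (knockout-labelled DOX), wild-type hearts after the same injection (WT DOX), hearts labelled CHIP knockout with no DOX (knockout-labelled untreated) and wild-type hearts with no DOX (WT untreated). CHIP is a ubiquitin ligase and cochaperone encoded by Stub1. The study describes the altered mice as carriers of a CHIP transgene expressed only in the heart, set against WT littermates, with saline for the control mice of both genotypes, and gives a higher dose and an older age range than the labels. Stub1 went against the knockout label. Its brighter probe set had an intensity between 5561 and 8723 on the knockout-labelled DOX arrays, against 1930 to 1950 on the WT DOX arrays, and of between 8762 and 9817 on the knockout-labelled untreated arrays, against 1790 to 1857 on the WT untreated arrays. On the other Stub1 probe set the groups overlapped, with 1146 to 1255 on the knockout-labelled DOX arrays, 1093 to 1402 on the WT DOX arrays, 1058 to 1122 on the knockout-labelled untreated arrays and 1037 to 1215 on the WT untreated arrays. The hearts are therefore named by their label throughout, with no direction of CHIP activity implied.

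Immediate early genes are transcribed soon after a cell receives a growth factor, stretch, ischemia or stress signal, without the need for new protein. Their promoters are switched on by factors that are already present, such as SRF, the ternary complex factors and CREB, which are reached by the ERK, p38 and calcium pathways. Most of their mRNAs are short-lived, and many of their products are transcription factors that turn on a later set of genes. In the heart Fos, Jun and Egr1 are known for brief rises after pressure load or adrenergic stimulation.

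The annotated promoters of 8 of the 10 members were held in the RefSeq table used here (GRCm38.p6). Of these, the 250 bases upstream of the start site are given for 4 genes, 3 whose intensity varied widely among hearts of 1 group (Fos, Junb and Nr4a1) and Jun, whose intensity did not. They lie at chr12:85473640-85473889 on the plus strand (Fos), chr8:84978749-84978998 on the minus strand (Junb), chr15:101266596-101266845 on the plus strand (Nr4a1, at a start site inside the gene's span) and chr4:95052223-95052472 on the minus strand (Jun). Capitals mark the core of a cAMP response element (CRE core, TGACG or its reverse complement, bound by CREB and ATF factors), the TATA box TATAAA, an EGR site (GCGNGGGCG) or a MEF2 site, each found on either strand.
Fos: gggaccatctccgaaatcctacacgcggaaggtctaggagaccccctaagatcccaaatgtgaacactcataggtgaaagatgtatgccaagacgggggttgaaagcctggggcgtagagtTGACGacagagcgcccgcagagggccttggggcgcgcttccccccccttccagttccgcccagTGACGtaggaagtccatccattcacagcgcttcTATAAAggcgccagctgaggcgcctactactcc
Junb: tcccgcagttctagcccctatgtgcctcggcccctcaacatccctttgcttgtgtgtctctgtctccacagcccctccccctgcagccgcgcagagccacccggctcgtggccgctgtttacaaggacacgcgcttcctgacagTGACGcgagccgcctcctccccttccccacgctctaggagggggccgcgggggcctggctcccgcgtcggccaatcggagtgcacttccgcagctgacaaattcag
Nr4a1: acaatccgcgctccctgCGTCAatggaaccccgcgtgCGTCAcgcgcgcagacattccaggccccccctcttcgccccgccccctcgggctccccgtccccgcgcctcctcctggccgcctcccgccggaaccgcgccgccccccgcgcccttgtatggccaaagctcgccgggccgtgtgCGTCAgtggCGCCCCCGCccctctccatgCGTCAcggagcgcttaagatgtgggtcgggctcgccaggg
Jun: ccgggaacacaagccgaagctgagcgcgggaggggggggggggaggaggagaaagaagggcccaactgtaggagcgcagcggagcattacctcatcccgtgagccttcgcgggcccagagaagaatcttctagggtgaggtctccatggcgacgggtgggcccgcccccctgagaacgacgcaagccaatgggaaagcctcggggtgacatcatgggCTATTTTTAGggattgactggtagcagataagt
The CRE core was in 6 of the 8 member promoters (Atf3, Klf4, Fosb, Junb, Fos and Nr4a1), against 17.8% of the 32851 start sites in the table. It began at positions -129 and -66 from the Fos start site, at -106 in Junb and at 4 positions in Nr4a1. The MEF2 site was in 2 (Atf3 and Jun, at -33 to -24 in Jun), against 0.508% of all start sites. The EGR site was in 3 (Klf4, Fosb and Nr4a1), against 4.7%, and TATAAA in 1 (Fos, at -33 to -28), against 12.4%. The AP-1 site TGANTCA (6.75% of all), the full CRE TGACGTCA (1.55%), which holds the core on both strands, the CArG box bound by SRF (1.47%) and the NR4A site AAAGGTCA (1.34%) were in 0 of the 8 windows. These matches describe the letters only, in windows too short to hold more distant elements.

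None of the 12 member probe sets passed the test in any of the 5 comparisons (limma, adjusted p under 0.05 over all 45037 probe sets). Over the whole table the test called 3.06% of probe sets in the DOX response of WT hearts, 2.2% in the DOX response of knockout-labelled hearts, 1.81% in the genotype difference without DOX, 0.941% in the genotype difference after DOX and 0% in the interaction of genotype and DOX. At an unadjusted p under 0.05, the members numbered 4, 0, 1, 0 and 1 of 12 in that order, beside 18.8%, 16.2%, 14.1%, 15.5% and 8.69% of all probe sets. The methods' t-test, which the study names for its comparisons, called 0 members in each comparison after the same adjustment. It called only 4, 0, 3, 0 and 0 of all 45037 probe sets, so its count of members carries little information. Intensities are of whole hearts, so that fewer cells of a type and less RNA per cell cannot be told apart.

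Fos, which pairs with JUN proteins to form the transcription factor AP-1, had intensities of 153, 180 and 119 in knockout-labelled DOX hearts, 154, 547 and 64.5 in WT DOX hearts, 286, 50.1 and 297 in knockout-labelled untreated hearts and 71.7, 78.5 and 89.4 in WT untreated hearts. The WT DOX hearts held both the highest value and a value below all WT untreated hearts, an 8.48-fold range within 1 group, and the knockout-labelled untreated hearts spanned 5.93-fold. The other groups spanned 1.51-fold (knockout-labelled DOX) and 1.25-fold (WT untreated). Fos was on average higher in WT DOX than in WT untreated hearts, with a log2 fold change of 0.97 (standard error 0.65, 95% interval -0.49 to 2.42, limma adjusted p = 0.49). That value was 0.26 without WT DOX replicate 2 and 1.55 without WT DOX replicate 3. All 4 groups overlapped with each group they were set against.

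Fosb, a FOS family partner of JUN proteins that is low in resting tissue, was dim, at 8.66, 9.13 and 10.9 in knockout-labelled DOX hearts, 8.59, 10.1 and 11.8 in WT DOX hearts, 9.74, 8.18 and 9.92 in knockout-labelled untreated hearts and 7.89, 10.4 and 9.13 in WT untreated hearts. Its mean of 9.53 lay at percentile 20 of the table, under the value of 32 that was added before the log2 was taken, so its fold changes of -0.03 to 0.04 on the log2 scale over the 5 comparisons say little about Fosb mRNA.

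Jun, the main partner of FOS in AP-1, varied less between replicates than Fos, with a widest range within a group of 1.47-fold (knockout-labelled untreated). Its brighter probe set had intensities of 398, 387 and 395 in knockout-labelled DOX hearts, 500, 483 and 433 in WT DOX hearts, 388, 277 and 407 in knockout-labelled untreated hearts and 371, 336 and 372 in WT untreated hearts. Each WT DOX heart lay above each heart of the other 3 groups. The log2 fold change was 0.36 between WT DOX and WT untreated hearts (standard error 0.11, 95% interval 0.11 to 0.62, limma adjusted p = 0.12) and -0.24 between knockout-labelled DOX and WT DOX hearts (standard error 0.11, 95% interval -0.50 to 0.01, limma adjusted p = 0.35). The other Jun probe set (205 to 339 over the 12 arrays) had log2 fold changes of 0.15 and -0.10 in these comparisons, and its WT DOX hearts lay above the WT untreated hearts but overlapped with the knockout-labelled DOX hearts. Without knockout-labelled untreated replicate 2, the low heart of its group, the DOX response of the brighter probe set in WT hearts reached an adjusted p of 0.021 at the same fold change, the 1 call a member made when arrays were left out in turn.

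Junb, a JUN family member that forms AP-1 dimers with weaker activity on many promoters, had intensities of 242, 132 and 131 in knockout-labelled DOX hearts, 138, 456 and 93.9 in WT DOX hearts, 185, 102 and 193 in knockout-labelled untreated hearts and 124, 95.8 and 138 in WT untreated hearts. WT DOX replicate 2 held the highest value of the 12 arrays and WT DOX replicate 3 the lowest, a 4.86-fold range within the group. The log2 fold change between WT DOX and WT untreated hearts was 0.54 (standard error 0.45, limma adjusted p = 0.59), with -0.04 without WT DOX replicate 2 and 0.94 without WT DOX replicate 3.

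**Figure D1:**
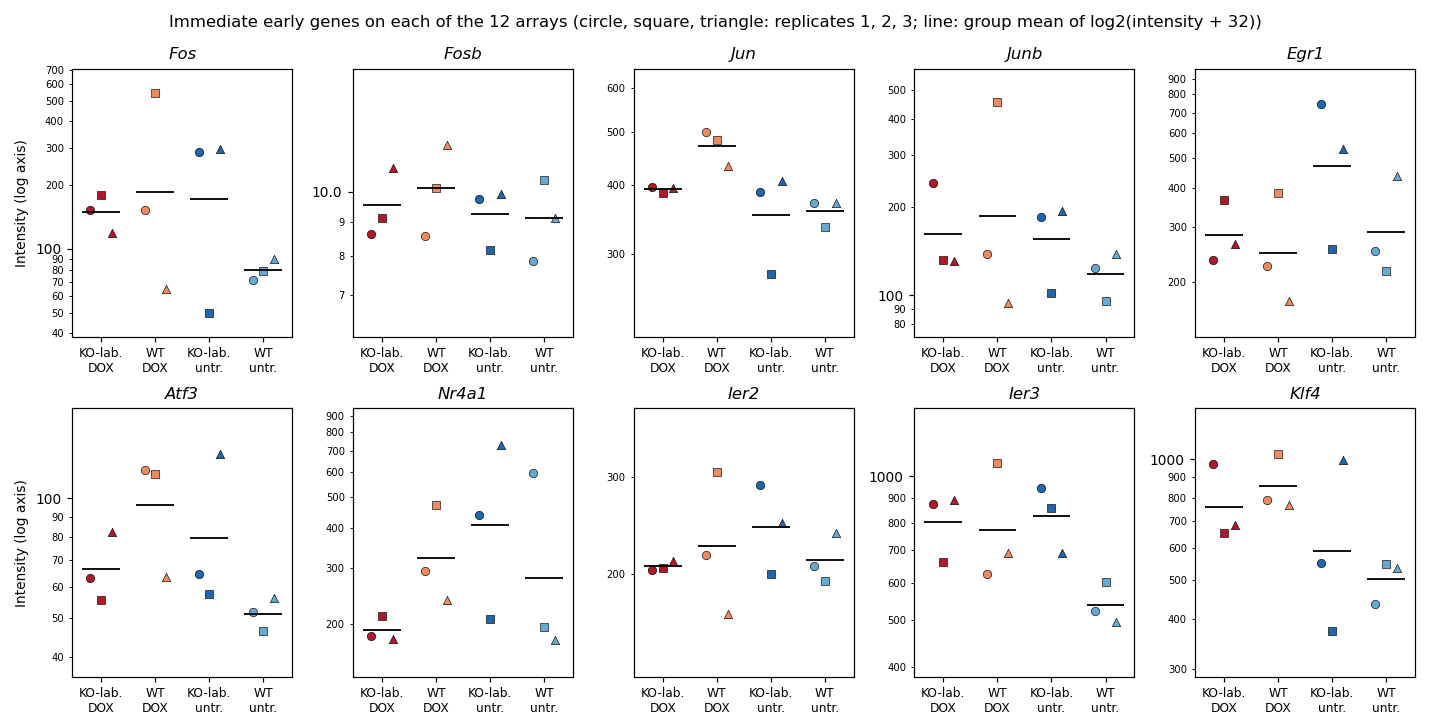
Intensity of each member gene (log axis, linear intensity as deposited) on its brightest probe set, with 1 point per heart for the knockout-labelled DOX, WT DOX, knockout-labelled untreated and WT untreated groups and a line at each group's mean of log2(intensity + 32). Fos and Junb spread widely within the WT DOX group, while the 3 WT DOX hearts lie above all others for Jun.

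Egr1, a zinc finger factor induced through SRF, was the 1 member with a lower mean in WT DOX than in WT untreated hearts. Its intensities were 236, 366 and 265 in knockout-labelled DOX hearts, 225, 387 and 174 in WT DOX hearts, 745, 255 and 536 in knockout-labelled untreated hearts and 251, 217 and 438 in WT untreated hearts. The order of the means was knockout-labelled untreated (512), WT untreated (302), knockout-labelled DOX (289) and WT DOX (262), and each neighbouring pair overlapped. The log2 fold change was -0.67 in the DOX response of knockout-labelled hearts (standard error 0.39, 95% interval -1.55 to 0.22, limma adjusted p = 0.47) and 0.65 in the genotype difference without DOX (adjusted p = 0.55). These values were -0.35 and 0.33 without knockout-labelled untreated replicate 1, and -1.07 and 1.05 without replicate 2 of that group.

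Nr4a1, an orphan nuclear receptor, had its narrowest range in knockout-labelled DOX hearts, at 184, 212 and 179, against 294, 472 and 238 in WT DOX hearts. Untreated hearts varied widely, with 439, 207 and 731 in the knockout-labelled group (3.53-fold) and 594, 195 and 178 in WT (3.35-fold). Each knockout-labelled DOX heart lay below each WT DOX heart, and the log2 fold change was -0.66 (standard error 0.48, 95% interval -1.75 to 0.42, limma adjusted p = 0.57). The DOX response was -0.98 in knockout-labelled hearts (95% interval -2.06 to 0.10, adjusted p = 0.36) and 0.19 in WT hearts (adjusted p = 0.89), the second of which was 0.70 without WT untreated replicate 1 and -0.06 without WT DOX replicate 2. With 1 array left out, the first lay between -1.43 (without knockout-labelled untreated replicate 2) and -0.59 (without replicate 3 of that group).

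Atf3, a stress-induced factor of the ATF family that dimerizes with JUN, had intensities of 63.1, 55.8 and 82.2 in knockout-labelled DOX hearts, 118, 115 and 63.4 in WT DOX hearts, 64.5, 57.5 and 129 in knockout-labelled untreated hearts and 51.8, 46.5 and 56.3 in WT untreated hearts. The WT untreated hearts lay below all WT DOX and all knockout-labelled untreated hearts. The log2 fold change was 0.62 in the DOX response of WT hearts (standard error 0.23, 95% interval 0.10 to 1.14, limma adjusted p = 0.18) and -0.18 in that of knockout-labelled hearts (adjusted p = 0.80). The interaction was -0.80 (standard error 0.33, 95% interval -1.53 to -0.06, unadjusted p = 0.036 and limma adjusted p = 0.56), and -0.53 without knockout-labelled untreated replicate 3.

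Klf4, a zinc finger factor active in endothelial and smooth muscle cells, had intensities on its brighter probe set of 970, 656 and 685 in knockout-labelled DOX hearts, 792, 1028 and 770 in WT DOX hearts, 551, 374 and 995 in knockout-labelled untreated hearts and 436, 549 and 536 in WT untreated hearts. Both DOX groups lay above the WT untreated hearts, while the knockout-labelled untreated hearts overlapped with every group. The DOX response on the log2 scale was 0.73 in WT hearts (standard error 0.29, 95% interval 0.07 to 1.38, limma adjusted p = 0.21) and 0.34 in knockout-labelled hearts (adjusted p = 0.66). The second was 0.03 without knockout-labelled untreated replicate 2 and 0.70 without replicate 3 of that group. The other Klf4 probe set gave 0.63 and 0.20.

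Ier3, which encodes a stress-inducible protein that affects cell survival and is no DNA-binding factor, was at 875, 663 and 893 in knockout-labelled DOX hearts, 626, 1065 and 691 in WT DOX hearts, 946, 859 and 692 in knockout-labelled untreated hearts and 524, 600.1 and 496 in WT untreated hearts. The WT untreated hearts lay below all hearts of the other 3 groups, which overlapped with each other. The log2 fold change was 0.59 in the genotype difference without DOX (standard error 0.19, 95% interval 0.15 to 1.02, limma adjusted p = 0.18) and 0.50 in the DOX response of WT hearts (standard error 0.19, 95% interval 0.06 to 0.93, limma adjusted p = 0.20). Without WT DOX replicate 2 the second was 0.27. It was -0.04 in the DOX response of knockout-labelled hearts and 0.05 in the genotype difference after DOX. Ier2, a small nuclear protein gene, stayed between 170 and 307 on all 12 arrays, at 203, 205 and 212 in knockout-labelled DOX hearts, 217, 307 and 170 in WT DOX hearts, 290, 200.3 and 248 in knockout-labelled untreated hearts and 207, 194 and 238 in WT untreated hearts. All its groups overlapped, and its 5 log2 fold changes lay between -0.28 and 0.17.

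Over the 10 genes, each on its brightest probe set, the median log2 fold change was 0.43 in the DOX response of WT hearts (9 above 0, range -0.19 to 0.97), -0.11 in the DOX response of knockout-labelled hearts (4 above 0, -0.98 to 0.34), 0.37 in the genotype difference without DOX (9 above 0, -0.02 to 0.88) and -0.17 in the genotype difference after DOX (2 above 0, -0.66 to 0.17). The interaction had a median of -0.48, with 0 of 10 above 0 (-1.17 to -0.03). Over all probe sets the 5 medians lay between -0.01 and 0.01. The comparisons share groups, and the WT untreated hearts, in which all 10 genes but Egr1 had a lower mean than in WT DOX hearts, enter 3 of the 5. The members' signs are not independent of each other either, since the same hearts were high or low for many of them. Without WT DOX replicate 2 and knockout-labelled untreated replicate 3, each the array of its group farthest from the group mean over all probe sets, the medians were 0.15 (6 above 0), 0.05 (6), 0.16 (7), 0.03 (5) and -0.10 (2). These arrays were picked after the data were seen. Most members were highest of their group on them, so leaving them out lowers most members' means in those groups. The low arrays, WT DOX replicate 3 and knockout-labelled untreated replicate 2, stayed in.

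The groups did not overlap for 6 of the 12 member probe sets in the DOX response of WT hearts (Jun and Klf4 with 2 each, Atf3 and Ier3, all higher after DOX), for 0 in that of knockout-labelled hearts, for 2 in the genotype difference without DOX (Atf3 and Ier3, both higher in knockout-labelled hearts) and for 2 in the genotype difference after DOX (Jun and Nr4a1, both lower in knockout-labelled hearts). Over all probe sets the shares were 24.4%, 20.7%, 19.4% and 20.4%. With 3 hearts against 3, an exact two-sided permutation test of a single gene cannot give a p below 0.1.

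**Figure D2:**
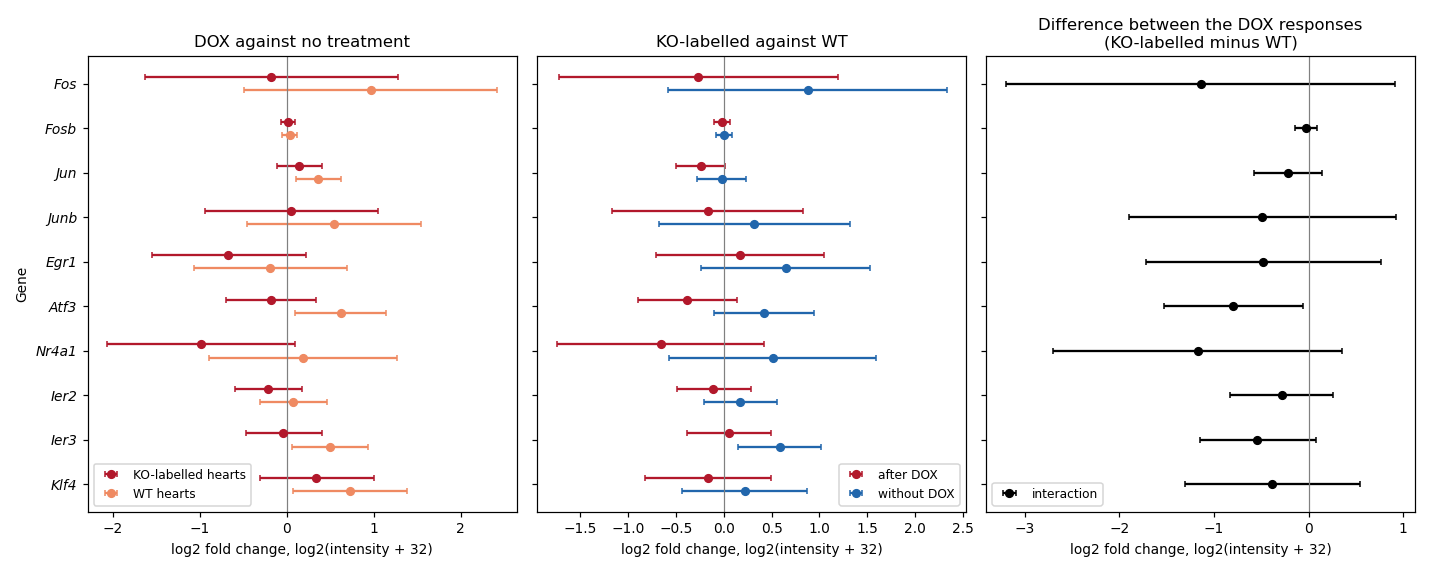
Log2 fold change (horizontal axis, on log2 of intensity plus 32) of each member gene on its brightest probe set, with 95% confidence intervals from limma, for the DOX response by genotype label, the genotype difference with and without DOX, and the interaction. Intervals of Fos, Junb, Egr1 and Nr4a1 are wide and include 0 in every comparison, and all 10 interaction values lie below 0.

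The members differed in their spread between hearts of 1 group. The residual standard deviation on the log2 scale was 0.88 for Fos, 0.65 for Nr4a1, 0.60 for Junb and 0.53 for Egr1, against a median of 0.13 over the 12942 probe sets with a mean intensity over 100. These lay at percentiles 99.8, 99.5, 99.4 and 99.1 of those probe sets. The Klf4 probe sets followed at 0.40 and 0.39 (percentiles 97.5 and 97.4), then Ier3 at 0.26, Ier2 at 0.23 and the Jun probe sets at 0.17 and 0.15, within the middle of the range at percentiles 75.1 and 65.3. In all, 6 of the 10 member probe sets with a mean over 100 lay above the 97th percentile and 4 above the 99th (0.51). Atf3 (0.31, mean 75.2) and Fosb (0.04) were under that mean. With this spread the median standard error of a member's fold change was 0.26, against 0.10 for probe sets over 100, and for Fos the interval of the DOX response in WT hearts reached 2.42.

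**Figure D3:**
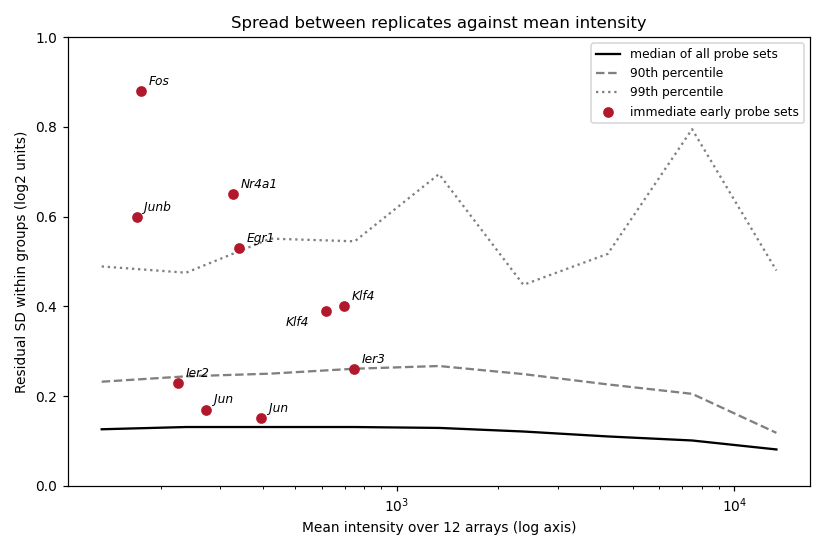
Residual standard deviation between hearts of 1 group (log2 scale) against mean intensity over the 12 arrays (log axis), with the 10 member probe sets over 100 as points and, by bins of intensity, the median and upper percentiles of all probe sets over 100 as lines. Fos, Nr4a1 and Junb lie above the line of the 99th percentile, Egr1 lies on it and the Jun probe sets lie near the median.

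The spread was shared among members. Deviations from the group means were compared over the 12 arrays, which have 4 group means removed and share their RNA extraction and hybridisation within a heart, so the correlations are descriptions. Pearson's r was 0.91 for Fos and Ier2, 0.87 for Egr1 and Ier2, 0.86 for Fos and Junb, 0.86 for Junb and Ier2 and 0.84 for Fos and Egr1. Over the 45 pairs of the 10 genes the median r was 0.50 and 46.7% of pairs were over 0.5, against a median of 0.05 and 14.2% of all pairs of the 7908 genes with a mean over 100. The 2 sets are not alike, since Fosb (mean 9.53) and Atf3 (75.2) lie under 100 and most members spread more than the typical gene. The dim Fosb was least tied to the others, with r from -0.15 (Junb) to 0.26 (Klf4). Ier3 was also less tied, with r from -0.13 (Jun) to 0.57 (Junb).

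A few hearts carried most of this pattern. The mean log2 deviation of the 10 genes was 0.50 in WT DOX replicate 2, where 7 of 10 were the highest of their group, and -0.39 in WT DOX replicate 3, where 8 were the lowest. In the knockout-labelled untreated group it was 0.18 in replicate 1, -0.50 in replicate 2, where 9 were the lowest, and 0.32 in replicate 3, where 7 were the highest. In the knockout-labelled DOX and WT untreated groups, and in WT DOX replicate 1, it stayed between -0.10 and 0.06. Over all probe sets, knockout-labelled untreated replicate 3 also lay farthest from its group (root mean square deviation 0.144), followed by WT DOX replicate 2 (0.119), WT DOX replicate 3 (0.116) and knockout-labelled untreated replicate 2 (0.114), while the other 8 arrays lay between 0.074 and 0.096. The median intensity of an array was between 28.9 and 30.4.

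**Figure D4:**
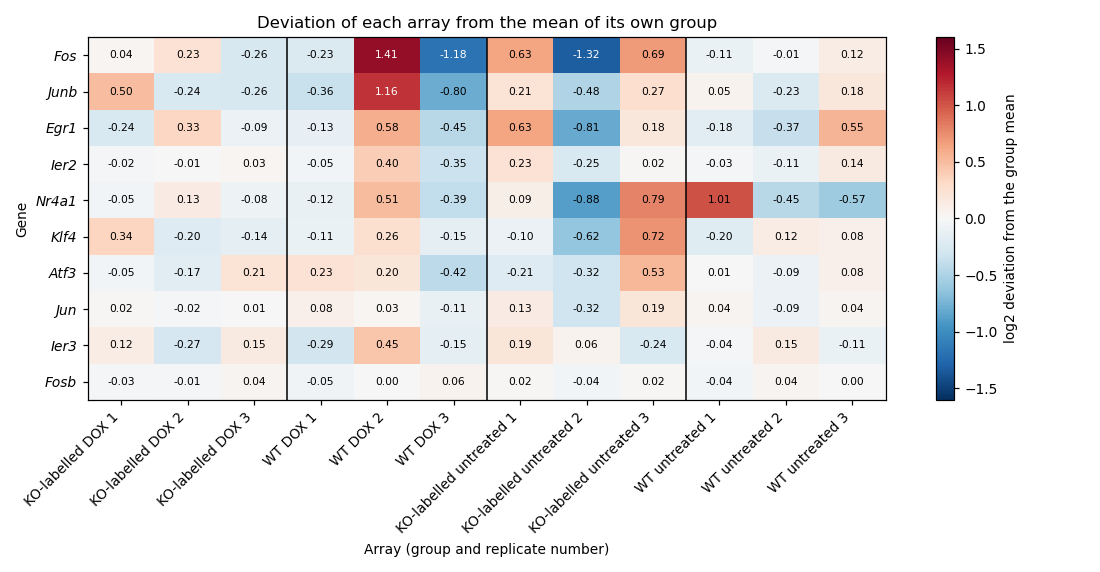
Log2 deviation of each member gene from the mean of its group, by heart, for the 4 groups. WT DOX replicate 2 and knockout-labelled untreated replicate 3 are high for most genes, and WT DOX replicate 3 and knockout-labelled untreated replicate 2 are low.

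Cell type markers moved with the same hearts in part. The summed intensity of 3 of 3 neutrophil markers (S100a8, S100a9 and Csf3r, none at 0) was 6117 in WT DOX replicate 2, against 841 and 501 in the other WT DOX hearts, and 4779 in knockout-labelled untreated replicate 3, against 248 and 676 in the others of that group. Nearly all of the sum came from S100a8 and S100a9, and Csf3r was at 65.5 in WT DOX replicate 2 (47.0 and 48.1 in the others of its group) and at 43.3 in knockout-labelled untreated replicate 3 (38.4 and 40.9 in the others). The sum ranged from 756 to 2484 in knockout-labelled DOX hearts and from 659 to 1938 in WT untreated hearts. The mean deviation of the neutrophil markers correlated with that of the members at r = 0.59 over the 12 arrays, the macrophage markers at 0.66, the fibroblast markers at 0.48, the cardiomyocyte markers at -0.47 and the lymphocyte markers (summed level 101 to 149.9) at -0.88. In the other lists r was 0.37 (atrial), 0.18 (endothelial), 0.08 (adipocyte), -0.40 (smooth muscle) and -0.43 (erythroid). The lymphocyte markers Cd79a (19.6 to 25.4 as group means) and Ms4a1 (11.8 to 21.1) lay under the added value of 32. The summed level of 3 of 3 atrial markers was 724.5 in knockout-labelled untreated replicate 3, against 66.0 to 146.5 on the other 11 arrays. The 4 cardiomyocyte markers (Myh6, Tnnt2, Actc1 and Ryr2) summed to between 48410 and 67000 on each array. Some markers also differed between groups (limma). Over all probe sets the test called 3.06% and 2.2% in the DOX responses of WT and knockout-labelled hearts. In the genotype differences it called 1.81% without DOX and 0.941% after DOX. In WT hearts after DOX, 2 of 4 macrophage markers were called lower (Cd68, with a log2 fold change of -0.95, adjusted p = 0.019, and Csf1r, with -0.75, adjusted p = 0.016), as were 1 of 4 fibroblast markers (Lum, -1.53, adjusted p = 0.0044) and 1 of 2 erythroid markers (Alas2, -3.21, adjusted p = 0.025). Not called were the macrophage markers Adgre1 (-0.58) and Cd163 (0.16) and the fibroblast markers Col1a1 (-0.60), Pdgfra (-0.10) and Dcn (0.08). In knockout-labelled hearts after DOX, 2 of 4 fibroblast markers were called lower (Lum, -0.99, adjusted p = 0.018, and Col1a1, -1.25, adjusted p = 0.033). So were 1 of 3 smooth muscle markers (Acta2, -1.91, adjusted p = 0.025) and 1 of 4 cardiomyocyte markers (Ryr2, -0.50, adjusted p = 0.042). Not called in the same lists were Tagln (-0.77), Myh11 (-0.46), Actc1 (-0.26), Pdgfra (-0.22), Myh6 (-0.12), Dcn (-0.03) and Tnnt2 (0.01). Called higher in knockout-labelled than in WT untreated hearts were 1 of 3 smooth muscle markers (Acta2, 2.41, adjusted p = 0.014) and 1 of 4 fibroblast markers (Col1a1, 1.13, adjusted p = 0.048). Called higher in knockout-labelled DOX than in WT DOX hearts was 1 of 4 fibroblast markers (Lum, 1.17, adjusted p = 0.020). The part of these cells in the members' values was not tested.

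Outside the members, the 5 genes of 7900 whose deviations over the 12 arrays were most like the members' mean deviation were D6Wsu163e (r = 0.98), Otud1 (r = 0.97), Smc3 (r = 0.97), Tex30 (r = 0.96) and Piezo1 (r = 0.95). They changed less between hearts. Otud1, a deubiquitinase gene, was at 213, 285 and 190 in WT DOX hearts and at 217, 171 and 239 in knockout-labelled untreated hearts. Within each of these 2 groups the order was that of the members' mean. The order differed in knockout-labelled DOX hearts (174, 179 and 176) and in WT untreated hearts (155, 157 and 167). Smc3, a cohesin subunit gene, lay between 214 and 316 on all 12 arrays.

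Other immediate early transcription factors, a list of 22 genes that were all measured, gave 1 call in 5 comparisons. Over the whole table the test called 3.06%, 2.2%, 1.81%, 0.941% and 0% of probe sets, in the order of comparisons above. Bhlhe40, a repressor linked to the circadian clock, fell in knockout-labelled hearts after DOX, to 369, 348 and 383 in knockout-labelled DOX hearts, against 699.6, 489 and 627 in knockout-labelled untreated hearts (log2 fold change -0.66, standard error 0.14, limma adjusted p = 0.047). That call was made in 2 of the 12 fits that left out 1 array. In WT hearts Bhlhe40 was at 337 ± 35 after DOX and 464 ± 87.8 without (SD, n = 3 each; limma adjusted p = 0.15). Medians of the list were 0.19, 0.08, 0.10, -0.04 and -0.20 in the order of comparisons above, beside 0.43, -0.11, 0.37, -0.17 and -0.48 for the members. In the comparisons with 0 calls, the smallest p values belonged to Nr4a3 and Egr2, relatives of Nr4a1 and Egr1, to Bhlhe40 and Nr4a2, and to Fosl1 and Ier5, with adjusted p values from 0.088 to 0.54 (limma). Nr4a3 was at 43.4 ± 4.35 in WT DOX and 53.6 ± 1.13 in WT untreated hearts, and Nr4a2 at 91.3 ± 8.60 in knockout-labelled untreated and 72.7 ± 5.85 in WT untreated hearts. Ier5 was at 249 ± 42.0 in knockout-labelled DOX and 343 ± 24.2 in WT DOX hearts, and Egr2 (7.71 to 14.2 as group means) and Fosl1 (13.3 to 18.0) were dim (SD, n = 3 each).

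Secreted and feedback genes of the immediate early class, of which 27 of 28 were measured, were called in 2 of the 5 comparisons. Hbegf, a growth factor of the EGF family, rose in WT hearts after DOX, to 556, 591 and 425 in WT DOX hearts, against 256, 232 and 236 in WT untreated hearts (log2 fold change 1.01, standard error 0.13, limma adjusted p = 0.010). It was lower in knockout-labelled DOX hearts, at 351, 349 and 261, than in WT DOX hearts (-0.66, adjusted p = 0.049), a call made in 1 of 12 fits without 1 array. In knockout-labelled untreated hearts Hbegf was at 308, 278 and 282. The matricellular gene Ccn1 rose 1.00 in WT hearts after DOX (limma adjusted p = 0.011), with 769, 862 and 624 in WT DOX hearts against 399, 310 and 365 in WT untreated hearts. It was at 262, 280 and 274 in knockout-labelled DOX hearts, below the 417, 336 and 436 of knockout-labelled untreated hearts, a difference that was not called. Its relative Ccn2 rose 1.65 in WT hearts (adjusted p = 0.033), a call made in 6 of the 12 fits without 1 array. These were 3 of 27 called higher and 0 lower in WT hearts after DOX, beside 3.06% of all probe sets called. In the DOX response of knockout-labelled hearts and in the genotype difference without DOX, 0 of 27 were called, beside 2.2% and 1.81%. After DOX, 2 of 27 were lower in knockout-labelled than in WT hearts (Ccn1 and Hbegf), beside 0.941%. At shares this low a count of 0 of 27 carries little information, and the list was chosen with earlier results of these data known. List medians were 0.29, -0.03, 0.08, -0.14 and -0.22. Feedback genes that did not pass in WT hearts after DOX included Btg2 (505 ± 182 in WT DOX and 236 ± 20.4 in WT untreated hearts, adjusted p = 0.10) and Zfp36, which encodes an mRNA decay factor (593 ± 239 and 296 ± 7.24 in the same order, adjusted p = 0.12; SD, n = 3 each, limma). In the interaction, Ccn1 was at -1.49 (adjusted p = 0.076) and Hbegf at -0.89 (adjusted p = 0.33).

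The kinases and factors that lie upstream of the members were measured for 19 of 23 genes. Over all probe sets 3.06%, 2.2%, 1.81%, 0.941% and 0% were called, in the order of comparisons above. Mapk9, which encodes the JUN kinase JNK2, differed in 3 comparisons. It was at 149, 146 and 147 in knockout-labelled DOX hearts, 121, 122 and 121 in WT DOX hearts, 190, 193 and 223 in knockout-labelled untreated hearts and 152, 140.1 and 150.3 in WT untreated hearts. It fell after DOX in knockout-labelled hearts (log2 fold change -0.38, limma adjusted p = 0.010) and in WT hearts (-0.23, adjusted p = 0.041), and was higher in knockout-labelled than in WT untreated hearts (0.38, adjusted p = 0.010). The call in WT hearts was made in 3 of the 12 fits that left out 1 array. Mapk14, the p38 alpha gene, was lower in knockout-labelled untreated hearts at 612, 618 and 698 than in WT untreated hearts at 834, 853 and 870 (-0.39, adjusted p = 0.017), and Map2k1, the MEK1 gene, was higher there (463 ± 19.0 against 402 ± 12.8, SD, n = 3 each, adjusted p = 0.049, called in 3 of 12 such fits). Mrtfb, an SRF coactivator gene, rose in knockout-labelled hearts after DOX (901 ± 102 against 580 ± 30.8 without, SD, n = 3 each, log2 fold change 0.60, adjusted p = 0.028), a call made in 6 of 12 such fits. In the genotype difference after DOX and in the interaction 0 of 19 were called, with Mapk9 (147 ± 1.49 in knockout-labelled DOX and 121 ± 0.705 in WT DOX hearts, SD, n = 3 each, adjusted p = 0.064) and Mef2a (interaction 0.45, adjusted p = 0.46) among the 2 smallest p values of each (limma).

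Among dimer partners of the members, with 18 of 20 AP-1 and ATF genes measured, 1 was called. Crem, a CREB relative, was higher in knockout-labelled untreated hearts, at 70.7, 68.8 and 80.5, than in WT untreated hearts, at 44.4, 41.1 and 50.3 (log2 fold change 0.45, standard error 0.07, limma adjusted p = 0.017). In that comparison 1.81% of all probe sets were called. Fosl2, a FOS family gene, was at 290 ± 118 in WT DOX and 125 ± 8.13 in WT untreated hearts (SD, n = 3 each, limma adjusted p = 0.15). Of 20 genes known as targets of AP-1 or EGR1, 19 were measured and 2 were called. Ccnd1, the cyclin D1 gene, fell after DOX in knockout-labelled hearts, to 402 ± 70.9 against 801 ± 152 without DOX (SD, n = 3 each, -0.94, adjusted p = 0.049), and Tgfb1 fell in WT hearts, to 67 ± 4.98 against 105 ± 6.72 (SD, n = 3 each, -0.47, adjusted p = 0.044). These were called in 3 and 4 of the 12 fits without 1 array. Over all probe sets 2.2% were called in the DOX response of knockout-labelled hearts and 3.06% in that of WT hearts. Nppa, the atrial natriuretic peptide gene and the target with the smallest p in both genotype differences, was at 15900 ± 1870 in knockout-labelled untreated and 6520 ± 2940 in WT untreated hearts (SD, n = 3 each, 1.38, adjusted p = 0.097) and at 12900 ± 2760 in knockout-labelled DOX and 7190 ± 2930 in WT DOX hearts (SD, n = 3 each, 0.90, adjusted p = 0.27, limma).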

How the data were processed

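Whole hearts of 4 groups of 3 mice were measured on Affymetrix arrays. The deposited values are linear intensities per probe set, made by the authors with Affymetrix Expression Console per the labels. Its version, summary method and scaling are not given in the sources used here. Of the 45037 probe sets (intensities from 3.28 to 27119), 51.4% had a mean under 32, where differences are compressed. Arrays carry no read depth, and 3 a group limit the precision. The annotation names 1 gene for 34945 probe sets, several for 932 and none for 9160. Names of 34741 were updated to GRCm38.p6.

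After 32 was added, log2 was taken. All 12 arrays entered 1 limma fit with a mean for each group (limma 3.58.1 under R 4.3.3, functions lmFit, contrasts.fit and eBayes, no trend). P values were two-sided, adjusted by Benjamini-Hochberg over the table in each comparison and called under 0.05. Fold changes and deviations are on the log2(intensity + 32) scale, which understates changes of dim genes. Where a gene had several probe sets, the brightest by mean was read.

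Every member is named. Of other lists, called genes are named (at most 4 a list and comparison), or some of the 2 with the smallest p where none was called. Btg2, Zfp36 and Fosl2 were chosen after their values were seen. The members and lists were chosen with earlier results of these data known. Alternatives were other added values, normalizations, variance models and filters, the study's t-test, a replicate block, the compared arrays alone and each array left out. The steps were tested on simulated data.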

Additional observations from a re-analysis of the deposited data

Results flagged for a closer look

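Atf3 was noted because the genotype difference ran in opposite directions with and without DOX. Each knockout-labelled DOX heart (55.8 to 82.2) lay below the WT DOX mean, and each knockout-labelled untreated heart (57.5 to 129) lay above the WT untreated mean. The knockout-labelled DOX hearts overlapped with the WT DOX hearts, whose replicate 3 was at 63.4. The genotype difference was -0.38 after DOX and 0.42 without, and the second was 0.16 without knockout-labelled untreated replicate 3. The interaction was -0.80 on the log2 scale (standard error 0.33) and missed the threshold (limma, adjusted p = 0.56).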

How the results depend on the processing

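The count of members called was 0 in each of the 5 comparisons under every setting run with adjusted p values on all 12 arrays or on the arrays compared, the replicate block included (0 members called in each, and 1335, 1095, 832, 336 and 0 of all probe sets). The labels do not say whether replicate numbers pair hearts. Deviations of same-numbered hearts correlated at -0.25 to 0.15 and those of other pairs at -0.30 to 0.29, which cannot settle whether they do. With each array left out in turn the count ranged from 0 to 1 in the DOX response of WT hearts (1 being Jun without knockout-labelled untreated replicate 2) and was 0 in the others. With the methods' t-test and no adjustment, it was 4 in the DOX response of WT hearts, 1 in the genotype difference without DOX and 1 in that after DOX, and 0 in the other 2 comparisons. Over all probe sets that test called 6756 (15%), 5349 (11.9%), 4966 (11%), 5292 (11.8%) and 3660 (8.13%), in the order of comparisons in the report. Over all probe sets the adjusted t-test called 4, 0, 3, 0 and 0 probe sets, against 1379, 990, 817, 424 and 0 with limma on all 12 arrays, and limma on the compared arrays alone called 911, 79, 206 and 2. Further counts that differed over 1.5 times were 2555, 1414 and 720 with array weights (WT response and the 2 genotype differences), 2283, 1707, 1375 and 739 over probe sets with a mean of at least 32, and 790, 361 and 250 (WT response and the 2 genotype differences) without WT DOX replicate 2 and knockout-labelled untreated replicate 3, a setting chosen after seeing the data. The interaction reached 3 with 1 added, 4 with a trended variance, 5 with array weights and 3 with the filter. With 1 array left out, the counts over all probe sets ranged from 41 (without WT untreated replicate 3) to 2285, 116 (without knockout-labelled DOX replicate 1) to 1090, 84 (without WT untreated replicate 2) to 1206, 19 (without knockout-labelled DOX replicate 2) to 893 and 0 to 2. Of the member fold changes under alternatives, 1204 kept their sign and moved by no more than the standard error of the main fit. A further 75 changed sign, by any amount, or moved by more, and 6 passed the threshold (5 of them in the unadjusted t-test). Of 390 such values for called list genes, 130 lost their call. Fosb drops out of the filter on a mean of at least 32, and the compared arrays alone give no interaction.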
